A study of Mus musculus with 6 samples.

Results

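The cells described here are the gamma-delta T cells of the aged mouse lung, lymphocytes whose antigen receptor pairs a gamma with a delta chain instead of an alpha with a beta chain. They were chosen by transcript counts alone. A barcode counted as a member when it had at least 500 genes, at least 1000 unique molecular identifiers (UMIs, each 1 captured transcript) and at most 15% mitochondrial UMIs, and when it held at least 1 UMI of Cd3e and at least 2 of Trdc but none of Ncr1, Cd4, Cd8b1 or Cd79a. Trdc encodes the delta chain constant region and Cd3e a signalling subunit of every T cell receptor, and the 4 barred genes mark natural killer, CD4 T, CD8 T and B cells. The rule found 496 cells among 94392 barcodes, of which 88616 passed the cell filter.

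Droplet-based 3' single-cell RNA sequencing was performed on lungs of male C57BL/6 mice aged 21 months, in 3 p16-DTR-labelled libraries and 3 control libraries. The former came from mice of genotype p16-CreERT2/R26-LSL-DTR, in which the promoter of p16 drives a tamoxifen-activated Cre recombinase, and Cre opens a diphtheria toxin receptor gene at the Rosa26 locus. Control mice carried p16-CreERT2 without that receptor allele. Animals of both groups received tamoxifen for 5 days, then diphtheria toxin for 5 days after a gap of 2 weeks, and recovered for 2 weeks, so the Cre allele and both agents are shared by all 6 libraries. For each library, 9000 cells positive for the leukocyte marker CD45 were added to 20000 negative ones. This sets the ratio of leukocytes to other cells put in, not the share recovered. The labels number the samples of a group from 1 to 3 without saying outright that each is its own mouse, so the p-values below measure the spread between these samples.

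The libraries held 13482 to 17332 barcodes and 254200305 to 344421685 UMIs, and any pair of them shared 59 to 94 barcode sequences. The gene whose expressing cells the design targets had more UMIs where the label is p16-DTR. This gene, Cdkn2a, encodes p16 and had 2011, 2533 and 2199 UMIs in the p16-DTR-labelled libraries and 395, 658 and 897 in the control libraries. Its 3' reads cannot tell p16Ink4a from p19Arf, which share their last exons. Transcripts of a tdTomato entry were found in 86, 73 and 91 barcodes of the p16-DTR-labelled libraries and in none of the control barcodes, although the labels name no tdTomato allele. Whether the genotype text is complete is not known, and whether cells expressing p16 were removed was not tested.

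Gamma-delta T cells are a small share of lung lymphocytes and are known for making interleukin 17 within hours of a signal, without priming in a lymph node. Most of the interleukin 17 producers arise in the fetal and neonatal thymus, where their programme is set by the transcription factors encoded by genes such as Maf, Sox13 and Zbtb16, and they respond to interleukin 23 and interleukin 1. The subset that settles in the lung, dermis and uterus carries a nearly invariant receptor made with the gamma segment Tcrg-V6 and the delta segment Trdv4. A second kind makes interferon gamma, depends on Tbx21 and recirculates.

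Of the variable segments shown, Tcrg-V6 and Trdv4 are those of the lung subset named above. The last pair is shown because its similarity limits how far reads can be assigned. Each line gives the germline coding strand at the 3' end of the segment's coding exon in GRCm38, with the TGT codon of the conserved cysteine, where the antigen-contact loop begins, in capitals. Tcrg-V6 lies at chr13:19190857-19190929 and Tcrg-V1 at chr13:19340381-19340454, both on the plus strand. Trgv2 lies at chr13:19336573-19336646 on the minus strand, and Trdv4 at chr14:54075444-54075515 on the plus strand.
Tcrg-V6: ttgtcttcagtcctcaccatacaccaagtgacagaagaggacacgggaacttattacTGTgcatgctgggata
Trdv4: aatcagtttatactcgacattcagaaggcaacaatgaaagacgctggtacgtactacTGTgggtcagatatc
Tcrg-V1: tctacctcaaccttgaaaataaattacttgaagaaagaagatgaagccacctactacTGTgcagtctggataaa
Trgv2: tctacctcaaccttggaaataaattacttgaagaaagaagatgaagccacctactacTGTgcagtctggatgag
The ends of Tcrg-V1 and Trgv2 differ at 3 of 74 bases, and the Tcrg-C1 and Tcrg-C2 constant gene transcripts are 94.1% identical, so counts of these genes may be split between near copies. Tcrg-C4 is 65.3% identical to Tcrg-C1. Tcrg-V6 lies upstream of Tcrg-C1, which spans 19214103 to 19217024 of chromosome 13. Tcrg-V1 lies upstream of Tcrg-C4 at 19344558 to 19352756.

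The p16-DTR-labelled libraries gave 80, 82 and 107 gamma-delta T cells and the control libraries 62, 73 and 92. Median UMIs per cell lay between 14770 and 15958 in the 6 libraries. The cells of a library summed to 1314541, 1330436 and 1891046 UMIs in those labelled p16-DTR and to 1031619, 1222694 and 1631731 in the controls. These sums are the depth behind every level below, which is given as counts per 1000000 UMIs of those cells (CPM).

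The rule's own genes are given as a description. Trdc had a median of 28 UMIs per cell, with quartiles of 16 and 39 and a highest value of 106, and Cd3e a median of 9. At the edge of the rule, 14 cells held exactly 2 UMIs of Trdc, and 13 cells met every other criterion with 1. Members held between 76.1% and 91.1% of all Trdc UMIs of their library. At least 2 UMIs of Trdc without any of Cd3e were found in 30, 36 and 44 barcodes of the p16-DTR-labelled libraries and in 30, 18 and 51 of the controls, and of these 27, 27 and 38, and 20, 14 and 44, held Ncr1, which encodes a receptor of natural killer cells.

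Other genes of the receptor complex, which the rule did not use, were found in most cells. The first 2 below serve every T cell receptor, so they cannot tell gamma-delta from alpha-beta T cells. Cd3g and Cd3d, further signalling subunits, were found in 99.6% and 97.4% of the cells called type 17 below and in 97.1% and 94.1% of the rest. Transcripts of beta chain constant regions were common as well. Trbc2 was found in 442 of 462 type 17 cells and 33 of 34 others, and Trac, the alpha chain constant gene, in 45.9% and 52.9%. These are gene counts, without assembled receptor chains.

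Among all T cells of a library (gamma-delta, CD4 and CD8 T cells by the UMI rules), gamma-delta T cells were 11.9%, 8.53% and 8.73% in the p16-DTR-labelled libraries and 10.7%, 11.9% and 8.78% in the controls. The means were 9.73% ± 1.90 and 10.5% ± 1.58 (SD, n = 3 each; exact two-sided permutation test, p = 0.5). The groups overlapped, and the difference was smaller than the spread within each over all 6 libraries. Leaving out libraries moved the difference of -0.72 percentage points to 0.0142 without control library 2 and to -1.82 without p16-DTR library 1, where the groups did not overlap (exact permutation test, p = 0.2). With 3 libraries against 3 this test cannot give a p below 0.1, and with 2 against 3 it cannot give one below 0.2. In all, 11 shares and medians were tested in this way, and the adjusted p here was 0.733. Among barcodes with a UMI of Ptprc, the gene of CD45, they were 1.47%, 1.36% and 1.59% against 1.23%, 1.76% and 1.67%. Such barcodes numbered 5452, 6037 and 6740 of the 14326, 14724 and 14965 past the filter in the p16-DTR-labelled libraries. In the controls they numbered 5048, 4137 and 5499 of 16426, 12667 and 15508.

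Nearly all of the cells carried a type 17 programme. A cell was called type 17 when it had at least 2 UMIs summed over 7 genes, of which Il23r, Il1r1, Blk, Sox13, Cd163l1 and 5830411N06Rik are described here. These encode the receptors for interleukin 23 and interleukin 1, a Src family kinase, a transcription factor and a pair of scavenger receptor family members. This held for 462 of 496 cells (93.1%). The sum was 0 in 33 cells and lay between 1 and 4 in 4 cells, while 270 cells lay between 80 and 159, so few cells lay near the threshold. Because those 7 genes chose the subset, their levels in it are no result.

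The type 17 share was 97.5%, 91.5% and 88.8% in the p16-DTR-labelled libraries and 93.5%, 97.3% and 92.4% in the controls (92.6% ± 4.46 against 94.4% ± 2.54, SD, n = 3 each; exact permutation test, p = 0.6, adjusted 0.733). The groups overlapped. The difference of -1.82 percentage points was 0.0817 without p16-DTR library 3. Without p16-DTR library 1 it was -4.28, and the groups did not overlap (exact permutation test, p = 0.2, the smallest possible there). The difference was -10.1 in the 89 cells with fewer than 3 UMIs of each screened other-lineage list (87.1% against 97.2%, exact permutation test, p = 0.4). The lists screened were myeloid, endothelial, epithelial, fibroblast, B cell and plasma cell. No list of alpha-beta T, natural killer or innate lymphoid cells was screened. The endothelial list alone reached 3 UMIs in 343 cells. In type 17 cells of the 6 libraries, its genes Pecam1 and Epas1 lay at 163 to 221 and 164 to 382 CPM. Cldn5, Cdh5 and Ramp2 lay at 7.54 to 147, 5.49 to 99.2 and 11.7 to 131. Whether gamma-delta T cells made these transcripts themselves was not tested. After thinning to 5000 UMIs the difference in the type 17 share was -3.21. Of the 34 remaining cells, 32 met a type 1 rule (at least 2 UMIs over Tbx21, Eomes, Klrd1, Nkg7 and Klrk1) and 2 met neither rule. Cd8a, which the gamma-delta rule did not bar, was found in 9 of these 34 and in 2 of the 462 type 17 cells. Their median of Trdc was 13 UMIs against 29, and whether some are alpha-beta T cells was not tested. A further 267 cells met both rules, and 88.4% of the type 1 UMIs in type 17 cells were Klrk1, which encodes the activating receptor NKG2D. Nkg7, a cytotoxic granule gene, was found in 22 of the 462 type 17 cells, and Eomes, a transcription factor of cytotoxic lymphocytes, in 1.

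**Figure D1:**
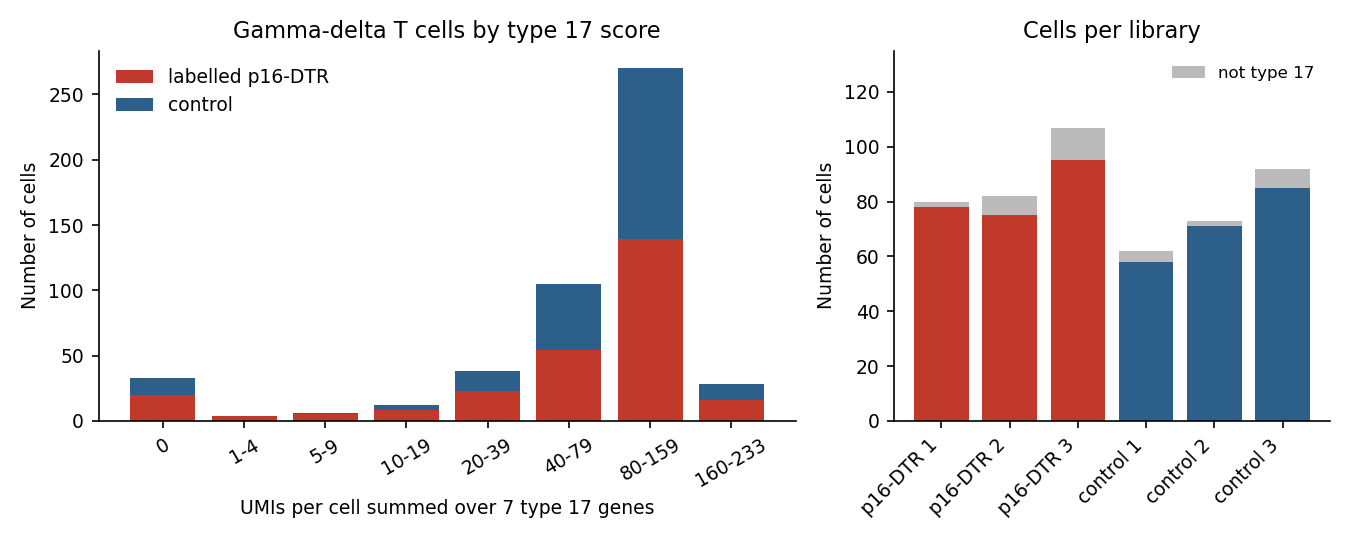
Left, number of gamma-delta T cells by their UMIs summed over the 7 type 17 genes, stacked by group. Right, cells per library, with the cells that were not type 17 in grey on top; 33 cells had a sum of 0, and each library held 58 to 95 type 17 cells.

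Receptor transcripts divided along the same line, though the rule had not asked for any variable segment. In type 17 cells Tcrg-V6 was found in 333 of 462 (72.1%) and Trdv4 in 405 (87.7%). In the 34 others Tcrg-V6 was found in 0, which allows a share of up to 10.3% (exact 95% interval), and Trdv4 in 4. Of the 333 cells with Tcrg-V6, 98.5% also held Trdv4. One or the other segment was found in 88.7% of type 17 cells and 11.8% of the rest. These intervals cover counting error only.

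The other gamma segments did not all run one way. Tcrg-V1 was found in 17 of the 34 remaining cells against 110 of 462 type 17 cells, and Tcrg-V4 in 10 of 34 against 32 of 462. Tcrg-V5 was found in 55 of 462 type 17 cells (11.9%) and 0 of 34, and Tcrg-V7 in 2 of 462 and 0 of 34. Tcrg-C1 was at 966 CPM in type 17 cells and 123 in the rest, and Tcrg-C4 at 151 and 261. Trgv2 transcripts were found in 88.2% of the rest and in 51.7% of type 17 cells, with the doubt over near copies given above. Trdc itself, a gene of the rule, was at 1776 and 902 CPM.

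By library, Tcrg-V6 was found in 70.0%, 52.4% and 62.6% of gamma-delta T cells of the p16-DTR-labelled libraries and in 72.6%, 82.2% and 67.4% of the controls. The means were 61.7% ± 8.82 and 74.1% ± 7.51 (SD, n = 3 each; exact permutation test, p = 0.2, adjusted 0.44), and library 1 labelled p16-DTR lay inside the control range. For Trdv4 the shares were 81.25%, 74.4% and 79.4% against 79.0%, 95.9% and 85.9%, which overlapped (exact permutation test, p = 0.3, adjusted 0.55).

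Effector and homing genes that neither subset rule used differed between the subsets as follows, pooled over libraries and without a test. Il17a was found in 253 of 462 type 17 cells and in 0 of the 34 others. Ifng, the gene of interferon gamma, was found in 4 of 462 and in 15 of 34. Ccl5, a chemokine of cytotoxic cells, was found in 9.74% and 91.2%. All 253 cells with Il17a were thus type 17 cells, while most cells with Ifng were not. By library, Ifng was found in 1, 10 and 2 gamma-delta T cells where the label is p16-DTR and in 1, 1 and 4 of the controls. In type 17 cells it was at 8.15 CPM in library 2 labelled p16-DTR and at 0 in every other library.

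Among transcription factors, Maf was found in 97.8% of type 17 cells and 26.5% of the rest, and Zbtb16, the gene of PLZF, in 97.4% and 47.1%. Cd27 and Lef1 had the opposite order. Cd27, a costimulatory receptor that marks interferon-producing gamma-delta T cells, was found in 7.36% and 76.5%, and Lef1, a factor of naive T cells, in 33.5% and 82.4%. Tcf7, a further factor of naive and memory T cells, was found in 76.6% and 70.6%. Gzma, a granule protease, gave 0.637 CPM in type 17 cells and 1091 in the rest, although only 9 of the 34 held it. Pdcd1, the gene of the inhibitory receptor PD-1, was found in 74.7% and 11.8%, and the potassium channel gene Kcnk1 in 91.3% and in none.

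**Figure D2:**
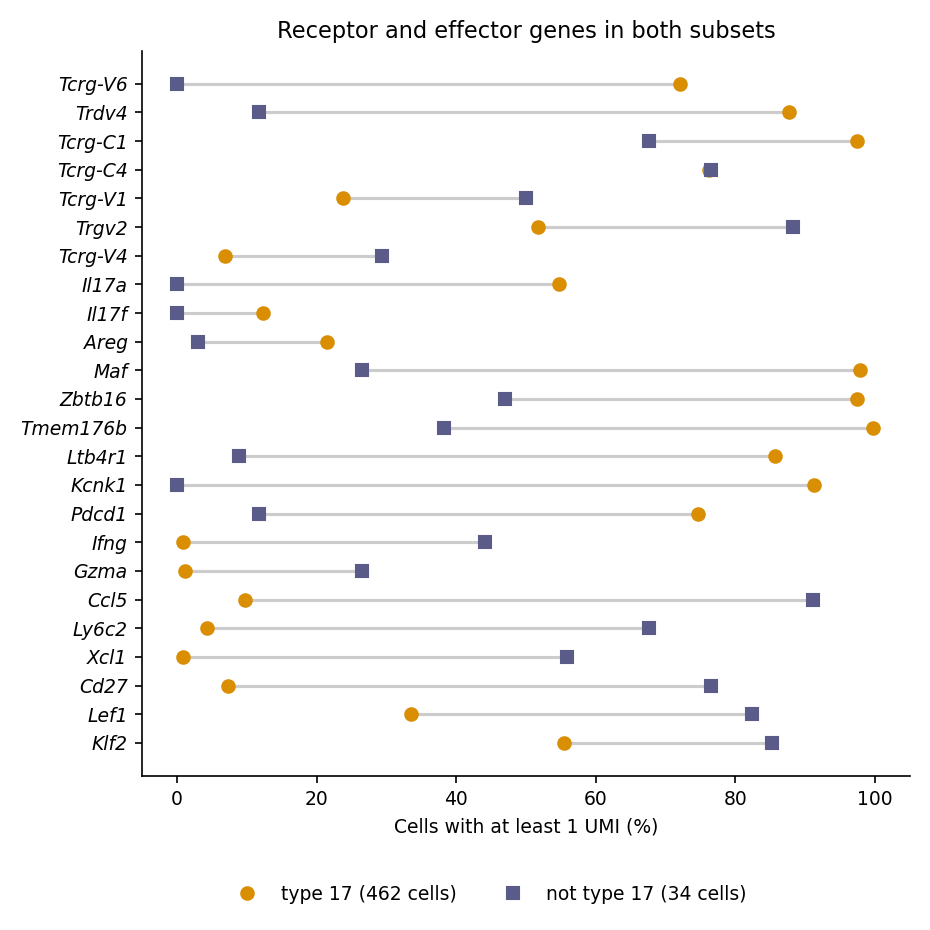
Share of cells with at least 1 UMI of each gene, pooled over the 6 libraries, in 462 type 17 cells (circles) and the 34 other gamma-delta T cells (squares). Tcrg-V6, Il17a and Kcnk1 are at 0 in the squares, while Ifng, Gzma and Xcl1, at 44.1%, 26.5% and 55.9% there, are at 0.866%, 1.08% and 0.866% in the circles.

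Il17a, the gene of interleukin 17A, had levels of 1111, 361 and 1934 CPM in the gamma-delta T cells of the p16-DTR-labelled libraries and 724, 447 and 819 in the controls. The highest and the lowest of the 6 libraries both carried the p16-DTR label, and the groups overlapped. The log2 difference was 0.76 ± 0.52 (SE; edgeR quasi-likelihood test, adjusted p = 0.978). Il17a was found in 58.75%, 31.7% and 65.4% of the cells against 54.8%, 45.2% and 46.7% (exact permutation test, p = 0.9, adjusted 0.9).

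A few cells held much of this transcript. The 5 cells with the most Il17a held 39.1%, 77.3% and 33.0% of the Il17a UMIs of the gamma-delta T cells in the p16-DTR-labelled libraries, and 62.2%, 51.2% and 43.0% in the controls. The highest single cell held 405 UMIs, in library 3 labelled p16-DTR. Il17f, the gene of interleukin 17F, was rarer, with 57 of 496 cells, of which 49 also held Il17a. Its levels were 91.3, 2.25 and 82.0 CPM against 39.7, 15.5 and 11.6, with overlapping groups (log2 difference 1.44 ± 0.93, SE; edgeR adjusted p = 0.978). Library 2 labelled p16-DTR was the lowest of all 6 for both cytokines.

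The part of each library's interleukin 17 transcripts held by the gamma-delta T cells was compared between the groups, and for neither gene did the difference pass the test. Of all Il17a UMIs of a library, they held 66.2%, 71.4% and 81.9% in the p16-DTR-labelled ones and 24.0%, 20.2% and 39.6% in the controls. The groups did not overlap, and the means were 73.2% ± 7.99 and 27.9% ± 10.3 (SD, n = 3 each; exact two-sided permutation test, p = 0.1, the smallest it can give; adjusted 0.44). In UMIs, the cells held 1461, 480 and 3658 against 747, 547 and 1337.

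CD4 T cells held most of the other Il17a in the control libraries, with 1793, 1846 and 1594 UMIs, against 263, 2 and 66 in the p16-DTR-labelled libraries. The UMIs of gamma-delta T cells thus overlapped between the groups, while those of CD4 T cells did not. For Il17f, gamma-delta T cells held 44.9%, 4.17% and 62.8% of the UMIs of a library against 4.81%, 1.96% and 1.56% (exact permutation test, p = 0.2, adjusted 0.44), and the groups overlapped through library 2 labelled p16-DTR. CD4 T cells held 40, 2 and 16 Il17f UMIs in the former libraries and 586, 764 and 974 in the latter. Whether fewer CD4 T cells made the transcript or each made less cannot be told apart from these sums.

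**Figure D3:**
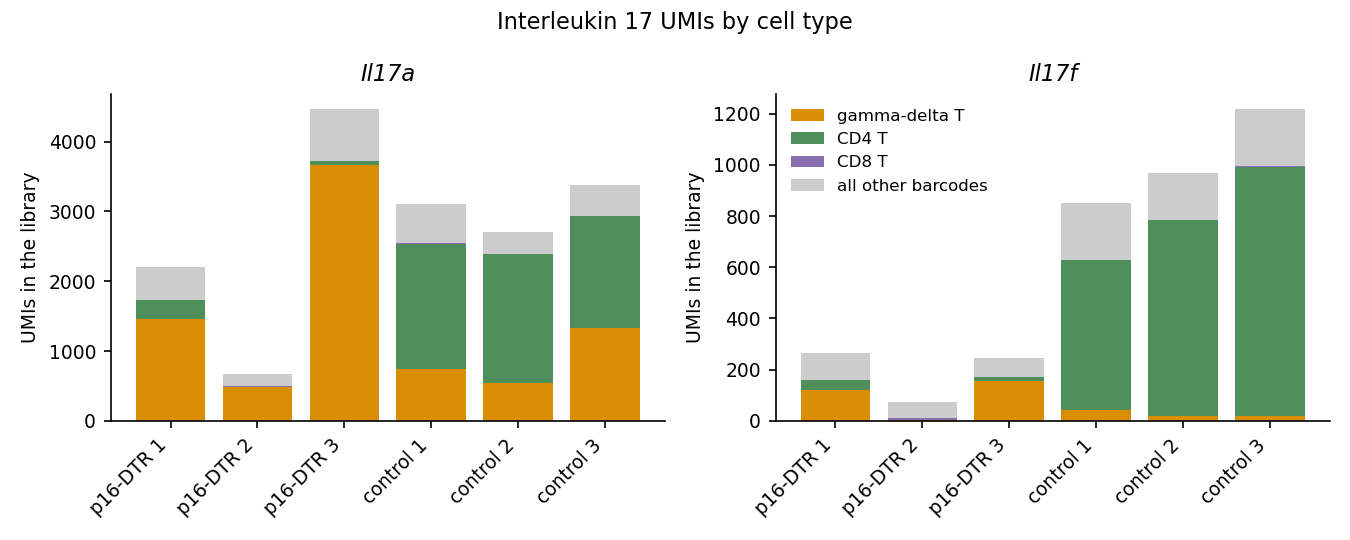
UMIs of Il17a (left) and Il17f (right) in each library, stacked by cell type. Gamma-delta T cells hold 66.2% to 81.9% of the Il17a bar in the p16-DTR-labelled libraries and 20.2% to 39.6% in the controls, where CD4 T cells hold 1594 to 1846 UMIs.

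Gamma-delta T cells were next compared with CD4 T, CD8 T and natural killer cells of the same libraries, with the library as a block. The 3 comparisons share the gamma-delta sums, and genes of the rules are not counted as results. Against CD4 T cells, 3379 of 12948 genes passed (26.1%; edgeR, adjusted p below 0.05), 1671 higher (12.9%) and 1708 lower (13.2%). Against CD8 T cells, 4213 of 12491 passed (33.7%), 2290 higher (18.3%) and 1923 lower (15.4%). Against natural killer cells, 4324 of 11869 passed (36.4%), 2182 higher (18.4%) and 2142 lower (18.0%). These shares over all genes are the background for every list count below.

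Of 23 type 17 genes, 19 of 23 tested were higher than in CD4 T cells and 21 of 23 than in CD8 T cells, and all 22 tested were higher than in natural killer cells, with none lower in any. The medians of the list on the log2 scale were 2.94, 4.23 and 6.94, where the medians over all genes were -0.03, -0.01 and -0.04. Sox13, a transcription factor of this lineage, averaged 122 CPM in gamma-delta T cells (83.4 to 148 in the 6 libraries), against 6.40 (3.08 to 12.4) in CD4 T cells. It was higher in 6 of 6 libraries, by 4.35 ± 0.22 on the log2 scale (SE; edgeR adjusted p = 3.6e-06). Of all Sox13 UMIs of a library, gamma-delta T cells held only 0.681% to 1.51%. Blk, a Src family kinase also used by B cells, averaged 617 CPM (495 to 726) against 0.798 in CD4 T cells and 3.46 in CD8 T cells, and no library of either exceeded 7.19. Cd163l1, which encodes the scavenger receptor SCART1, averaged 1964 against 5.28 in CD4 T and 16.9 in CD8 T cells.

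Il17a averaged 900 CPM against 143 in CD4 T cells (log2 difference 3.58 ± 1.14, SE; higher in 6 of 6 libraries; edgeR adjusted p = 0.048), close to the threshold. The CD4 T cell average joins 52.4, 0.260 and 7.92 CPM in the p16-DTR-labelled libraries and 338, 279 and 182 in the controls. Il17f did not pass (0.09 ± 1.33, edgeR adjusted p = 0.98): it was higher in gamma-delta T cells of the 3 p16-DTR-labelled libraries and lower in those of the 3 controls. Maf, whose levels were 485 and 347, was higher by 0.50 ± 0.08 (edgeR adjusted p = 0.0016). Ccr6, a receptor for the chemokine CCL20 that is used by type 17 cells, averaged 43.2 in gamma-delta T cells and 41.6 in CD4 T cells and did not pass (edgeR adjusted p = 0.64). These averages also join unlike groups, with opposite orders. In the p16-DTR-labelled libraries it was at 36.5, 64.6 and 50.2 CPM in gamma-delta T cells and 29.3, 5.73 and 12 in CD4 T cells, and in the controls at 51.4, 33.5 and 22.7 and at 52.0, 95.1 and 55.1. The test of that difference between the groups did not pass (2.82 ± 0.73 on the log2 scale, SE; edgeR adjusted p = 0.341).

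The type 1 and cytotoxic list ran the other way. Of its 22 genes, 16 of 22 tested were lower than in CD8 T cells and 0 higher, and all 21 tested were lower than in natural killer cells. Against CD4 T cells 7 were lower and 4 higher. Ccl5 averaged 296 CPM (92.1 to 563) against 4997 in CD8 T cells (log2 difference -4.33 ± 0.41, SE; lower in 6 of 6 libraries; edgeR adjusted p = 4.4e-05). Prf1, the pore-forming perforin gene, averaged 11.8 against 103 in CD8 T cells and 1094 in natural killer cells.

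Genes of circulation and the naive state were lower as well, 8 of 8 against CD8 T cells and 7 of 8 against CD4 T cells. Ccr7, the chemokine receptor for entry into lymph nodes, averaged 13.5 CPM (2.28 to 29.4) against 359 in CD8 T and 159 in CD4 T cells, and was lower in 6 of 6 libraries in both comparisons. Klf2, a factor that maintains circulation, averaged 312 against 980 and 759. Against natural killer cells, 4 of 7 tested were lower and 2 higher, Ccr7 among the latter.

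Of the genes of tissue residency, 9 of 11 tested were higher than in CD8 T cells and 1 lower. Against CD4 T cells 4 of 12 were higher and 2 lower, and against natural killer cells 5 of 11 were higher and 2 lower. Cxcr6, a chemokine receptor of resident lymphocytes, averaged 857 CPM (753 to 1028) against 73.9 in CD8 T and 142 in CD4 T cells, with log2 differences of 3.55 ± 0.21 and 2.65 ± 0.16 (SE; edgeR adjusted p = 3.2e-06 and 6.8e-06). Cd69, which holds cells in tissue by blocking their egress receptor, averaged 471 against 309 and 233. Itgae, the integrin chain that binds epithelial cadherin, averaged 38.7 and passed against CD8 T cells alone among the alpha-beta T cells (log2 difference 1.30 ± 0.44; edgeR adjusted p = 0.048).

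Receptors and soluble factors gave a mixed picture. Among cytokine receptors, 11 of 17 were higher and 5 lower against CD4 T cells, 8 higher and 4 lower against CD8 T cells, and 10 higher and 5 lower against natural killer cells. Il23r averaged 1159 CPM against 98.3 in CD4 T and 22.2 in CD8 T cells. The CD4 T cell average joins 29.5 in the p16-DTR-labelled libraries and 167 in the controls. Gamma-delta T cells held 22.9% to 43.8% of a library's Il23r UMIs. CD4 T cells held 1.53% to 30.5% and CD8 T cells 0.119% to 7.24%, so part lay outside these T cell types. Il7r, the receptor for the survival factor interleukin 7, averaged 1867 against 1057 and 1102. Of the soluble factors, 10 of 15 tested were higher than in CD8 T cells and 6 of 16 than in CD4 T cells, with 1 and 3 lower, and 8 of 13 than in natural killer cells, with 1 lower. Tnfsf11, the gene of RANKL, averaged 263 against 6.24 in CD8 T cells and 152 in CD4 T cells. Areg, the gene of the epithelial growth factor amphiregulin, averaged 136 against 7.49 in CD8 T cells but 132 in CD4 T cells. The log2 difference to CD4 T cells was -0.19 ± 0.41 (SE, edgeR adjusted p = 0.78). Its sign is opposite to the order of the averages, and the libraries went both ways.

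Chemokine receptors were lower more often than higher against alpha-beta T cells, 6 against 3 of 11 tested for CD8 and 6 against 2 of 12 for CD4, and 6 of 9 were higher and 3 lower against natural killer cells. Ccr2, which guides cells to inflamed tissue, averaged 651 CPM and was higher in all 3 comparisons (172 in natural killer cells, 122 in CD8 T and 189 in CD4 T cells). Of 15 checkpoint and costimulation genes, 5 were higher and 7 lower against CD8 T cells, 3 and 7 against CD4 T cells, and 6 and 5 of 13 tested against natural killer cells. Pdcd1 averaged 244 against 39.6 in CD8 T and 56.1 in CD4 T cells. Tnfrsf4, the gene of OX40, averaged 1.63 against 129 in CD4 T cells.

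Among genes of T cell receptor signalling, 6 of 11 were higher and 3 lower against CD8 T cells, 4 and 3 against CD4 T cells, and 6 and 2 against natural killer cells. Zap70, the kinase recruited to the receptor, averaged 257 CPM against 87.8 in CD8 T and 125 in CD4 T cells. Lck, the kinase that acts upstream of it with the CD4 and CD8 coreceptors, averaged 37.2 against 346 and 315, and Cd5, an inhibitory surface protein set by receptor signal strength, 23.7 against 167 and 439. Each of these differences was seen in 6 of 6 libraries.

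Interferon-response genes were lower in 10 of 18 against CD8 T cells and in 4 of 18 against CD4 T cells with none higher, and against natural killer cells 5 were higher and 2 lower. Cell cycle genes were lower in 4, 6 and 2 of 9 against CD8 T, CD4 T and natural killer cells, with none higher. Of the senescence and p53 list, 1 of 10 tested was higher and 3 lower against CD8 T cells, 2 and 2 of 11 against CD4 T cells, and 2 and 3 of 10 against natural killer cells. In the same order of cell types, 15.4%, 13.2% and 18.0% of all genes were lower and 18.3%, 12.9% and 18.4% higher. Several of these counts, such as 2 of 9 cell cycle genes against natural killer cells, are near those shares. Genes of the stress of tissue dissociation were higher in 9, 5 and 5 of 13 against CD8 T, CD4 T and natural killer cells, with 1, 0 and 1 lower. The part of the digestion in these values was not tested.

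In all 3 comparisons at once, 1069 of 11535 genes were higher and 485 lower. Ranked by the smallest of their 3 log2 differences, genes with a mean of at least 50 CPM were led by Tcrg-V6, a receptor gene that travels with the rule, and then by Nrxn3, which encodes a neuronal adhesion protein. Nrxn3 averaged 375 CPM (182 to 736) and was at 0.709, 0.688 and 1.04 in CD4 T, CD8 T and natural killer cells. The smallest of its differences was 8.03 ± 0.50 on the log2 scale (SE; edgeR adjusted p = 6.9e-06), against natural killer cells. Fstl4, of the follistatin-like family, averaged 261 and at most 2.03 in the other types, the RNA helicase gene Tdrd9 110 and at most 0.789, and the cadherin gene Cdh20 54.6 and at most 0.359. Mtcl1, which encodes a microtubule crosslinking protein and returns below, averaged 137 against 2.12, 2.08 and 2.88.

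Between the groups, no gene passed in gamma-delta T cells: 0 of 9560 were called (0.0%; edgeR, adjusted p below 0.05). An unadjusted p below 0.05 was found for 469 genes (4.91%), 240 higher and 229 lower in the p16-DTR-labelled libraries. DESeq2 called 3 genes, Mtcl1, Frmd5 and Kcnq5. Library values of the groups did not overlap for 1001 genes (10.5%). Within type 17 cells edgeR called 0 of 9436 (0.0%), with 492 at an unadjusted p below 0.05 (5.21%), and DESeq2 called the same 3 genes. Markers of other cell types were present at differing levels in the sums and are given after the gene groups.

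Mtcl1 was at 92.8, 82.7 and 91.0 CPM in the p16-DTR-labelled libraries and at 202, 172 and 180 in the controls. Every control library lay above every library labelled p16-DTR. The log2 difference was -1.07 ± 0.12 (SE; edgeR adjusted p = 0.215; DESeq2 adjusted p = 9.0e-05). In CD4 and CD8 T cells the gene was at most 4.51 CPM in any library.

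Frmd5, which encodes a membrane-linked protein of the FERM family, was at 65.4, 141 and 130 against 38.8, 22.9 and 38.6 CPM, without overlap. Its log2 difference was 1.73 ± 0.33 (SE; edgeR adjusted p = 0.954; DESeq2 adjusted p = 0.00780). Kcnq5, a voltage-gated potassium channel gene, was at 129, 234 and 231 against 89.2, 45.8 and 90.7, again without overlap (1.38 ± 0.31, SE; edgeR adjusted p = 0.954; DESeq2 adjusted p = 0.0364). Over all gamma-delta T cells, library 1 was the lowest of those labelled p16-DTR in both genes. Of the 1213 Kcnq5 UMIs, 706 came from type 17 cells. In those cells alone Kcnq5 was at 129, 160 and 112 against 30.9, 42.5 and 48.7 CPM, where library 3 was the lowest of the former (1.68 ± 0.22, SE; edgeR adjusted p = 0.310).

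The other genes among the 20 with the smallest p are given as not called. Lrat, an enzyme of vitamin A storage, was at 1.52, 0.752 and 1.06 CPM against 15.5, 10.6 and 10.4, from 51 UMIs in all. Relb and Map3k14, a subunit of and the kinase upstream of non-canonical NF-kappaB, were at 165, 164 and 152 against 222, 234 and 245, and at 296, 259 and 244 against 360, 371 and 408. Their log2 differences were -0.56 ± 0.11 and -0.53 ± 0.12 (SE; edgeR adjusted p = 0.954 for each). In the 89 cells with fewer than 3 UMIs of each screened other-lineage list, the difference for Relb was 0.0909. Fkbp5, a glucocorticoid-induced chaperone partner, was at 196, 184 and 218 against 98.9, 133 and 131. Itch, Thbd, Dach2, Gm14005, Lrp5, Ptprg, Lrmda and Nkd1 also had higher values in the p16-DTR-labelled libraries, and Olfr60, Yes1, Optn, Gm48664 and Lhfpl3 lower ones. None of these 20 genes overlapped between the groups, a feature that choosing them by p favours. The order was the same in other T cells for Lrat, Relb, Map3k14 and Fkbp5. Their log2 differences were -1.08, -0.26, -0.61 and 0.61 in CD4 T cells and -1.39, -0.23, -0.35 and 0.82 in CD8 T cells. Of these, only Map3k14 in CD4 T cells passed (edgeR adjusted p = 0.0150).

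**Figure D4:**
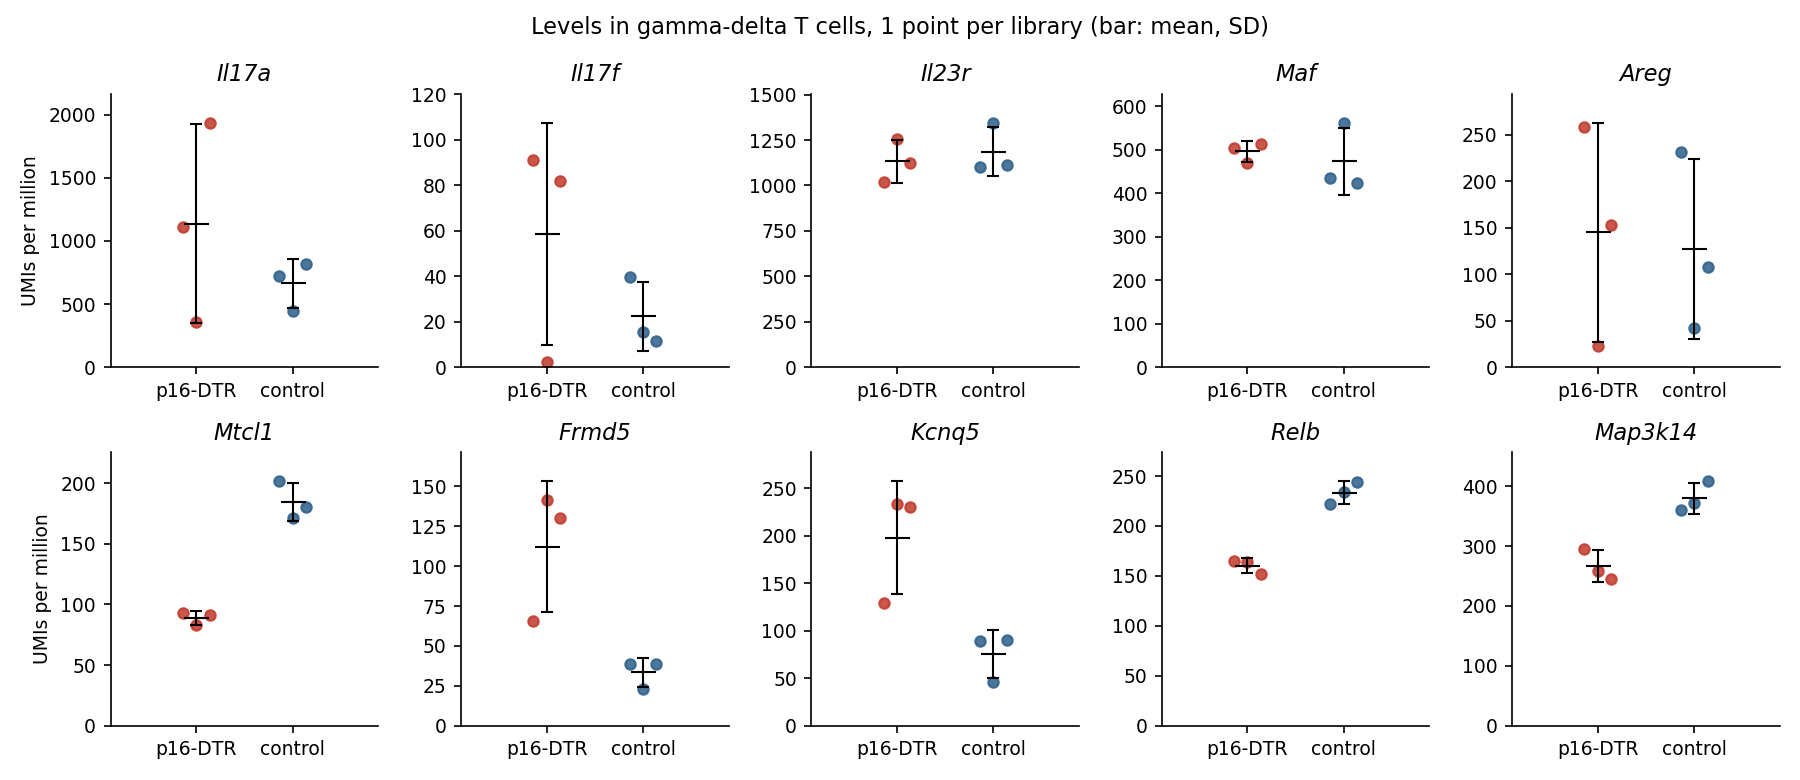
Levels in gamma-delta T cells (CPM), 1 point per library, with the mean and SD of each group as bars. The cytokine genes Il17a, Il17f and Areg overlap between the groups, as do Il23r and Maf; Mtcl1, Frmd5, Kcnq5, Relb and Map3k14 do not, and edgeR called none of the 10.

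By list, edgeR called 0 members of each of the 13 lists between the groups. Of 22 type 17 genes tested, 8 were higher and 14 lower in the p16-DTR-labelled libraries, with a median log2 difference of -0.06 (0.0022 over all genes). Il23r was at 1020, 1254 and 1122 CPM against 1104, 1345 and 1110. Maf was at 505, 470 and 513 against 435, 562 and 423, and both genes overlapped between the groups. Rora, a nuclear receptor gene, was at 2089, 1893 and 1796 against 2206, 2464 and 2331 without overlap (edgeR adjusted p = 0.954).

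Of 18 type 1 and cytotoxic genes tested, 12 were higher and 6 lower, with a median of 0.28. Tbx21, the gene of the transcription factor T-bet, was at 33.5, 48.1 and 50.8 against 6.79, 9.81 and 31.9 CPM, without overlap. Its log2 difference was 1.36 ± 0.50 (SE, edgeR adjusted p = 0.954). In type 17 cells alone its groups overlapped, at 14.8, 37.5 and 39.3 against 3.09, 3.33 and 18.5 CPM. Of the 8 genes of the list tested in those cells, 4 were higher and 4 lower, with a median of 0.08. Ccl3, a chemokine that draws monocytes, was at 307, 15.8 and 11.1 against 1.94, 0 and 1.23, so library 1 labelled p16-DTR held most of it. In the same library, mast cell and basophil genes summed to 31.95 CPM, against 0 to 6.01 in the other 5, and their part in the Ccl3 level was not tested. Ifng, at 4.56, 24.8 and 1.06 against 3.88, 4.91 and 4.29, was too low to be tested.

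Cytokine receptors were lower in 12 of 17 and higher in 5, with a median of -0.03. Il2ra, the high-affinity chain of the interleukin 2 receptor, was at 523, 440 and 479 CPM against 535, 668 and 602, without overlap. Il21r and Il4ra, receptors for interleukin 21 and interleukin 4, did not overlap either, at 81.4, 52.6 and 73.0 against 118, 94.1 and 93.8, and at 113, 84.2 and 111 against 125, 156 and 134. The edgeR adjusted p was 0.954 for each of the 3.

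Soluble factors were higher in 6 and lower in 6 of 12 tested, with a median of 0.01. Areg was at 259, 23.3 and 153 CPM against 232, 41.7 and 108, a spread within each group far wider than the difference between them. Tnf, the gene of tumour necrosis factor, was at 150, 131 and 141 against 196, 155 and 189. Residency genes were higher in 7 of 11 with a median of 0.13, circulation genes in 3 of 7 with a median of -0.12, chemokine receptors in 5 of 9 with a median of 0.04, and checkpoint genes in 6 of 11 with a median of 0.04.

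Interferon genes were higher in 7 of 15 (median -0.04), receptor signalling genes in 4 of 9 (median -0.06), dissociation genes in 4 of 12 (median -0.05) and senescence and p53 genes in 3 of 8 (median -0.03). All 6 cell cycle genes tested were lower, with a median of -1.19. Mki67, a marker of dividing cells, was at 12.2, 1.503 and 0.529 CPM against 84.3, 9.81 and 14.7. Its groups overlapped, and control library 1 held most of its 142 UMIs (edgeR adjusted p = 0.954).

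Transcripts from marker lists of other cell types were found in the gamma-delta sums, each list given as its summed CPM over libraries. The myeloid list (7 of 7 genes detected) ranged from 401 to 1624 in the p16-DTR-labelled libraries and from 295 to 836 in the controls. The endothelial list (5 of 5) ranged from 509 to 897 and from 338 to 653, the epithelial list (5 of 5) from 94.3 to 174 and from 81.4 to 159, and the fibroblast list (4 of 4) from 25.9 to 607 and from 40.9 to 299. All 4 ranges overlapped between the groups.

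Among lymphoid lists, alpha-beta T cell genes (5 of 7; Cd4 and Cd8b1 at 0 by the rule) ranged from 941 to 981 and from 940 to 1090, and natural killer genes (7 of 8; Ncr1 at 0 by the rule) from 18.0 to 170 and from 30.1 to 175. Those of group 2 innate lymphoid cells (6 of 6) ranged from 77.6 to 118 and from 61.3 to 99.0, and B cell genes (4 of 5; Cd79a at 0 by the rule) from 54.8 to 80.4 and from 49.4 to 82.6. Plasma cell (2 of 2), platelet (2 of 2) and erythroid genes (1 of 2; Hba-a1 at 0) stayed at or below 4.51, and mast cell and basophil genes (3 of 3) reached 31.95 in library 1 labelled p16-DTR. Cells were left out as an alternative by the myeloid, endothelial, epithelial, fibroblast, B cell and plasma cell lists only. The part of the marker lists in the values between the groups was not tested beyond that.

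Cdkn2a was rare in gamma-delta T cells, with 56 UMIs in all. Its levels were 19.0, 7.52 and 7.93 CPM in the p16-DTR-labelled libraries and 2.91, 1.64 and 0.613 in the controls, without overlap, and too low for the edgeR filter. After thinning each cell to 5000 UMIs, which left out 6 shallower cells in each group, a Cdkn2a UMI was found in 7.50%, 3.75% and 2.91% against 1.75%, 0% and 1.10% of cells (4.72% ± 2.44 against 0.951% ± 0.886, SD, n = 3 each; exact permutation test, p = 0.1, the smallest possible; adjusted 0.44). The difference of 3.77 percentage points was 2.38 without p16-DTR library 1. Without thinning the shares were 20%, 10.98% and 8.41% against 4.84%, 2.74% and 1.09%.

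In the other cell types the pooled shares had the same order, and these shares have no test. In CPM, Cdkn2a did not pass between the groups in CD4 T cells (edgeR adjusted p = 0.0682) or CD8 T cells (0.119). Thinned and pooled by group, the shares were 4.56% (12 of 263) and 0.905% (2 of 221) in gamma-delta T cells, 8.32% and 1.87% in CD4 T cells, 8.26% and 1.03% in CD8 T cells, and 6.22% and 0.251% in B cells. Natural killer cells gave 5.12% and 0 of 484 at the thinned depth, where counting error alone allows up to 0.620% (3 cells of the total), and 11.1% and 0.588% (3 of 510) without thinning. Neutrophils gave 1.02% and 0.0572%, at a median of 10755.5 and 10665 UMIs per cell against 15145 and 15793 in gamma-delta T cells. In gamma-delta T cells the share rests on few cells, and the part of free RNA in it was not tested.

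Cdkn1a, the gene of the cell cycle inhibitor p21, was at 175, 180 and 177 CPM against 205, 180 and 195, with overlapping groups (log2 difference -0.14 ± 0.10, SE; edgeR adjusted p = 0.978; 0.0932 in the 89 cells named above). A tdTomato UMI was found in 1 gamma-delta T cell. Gt(ROSA)26Sor, the transcript of the locus that carries the receptor allele, was picked after its values were seen. It was at 7.61, 7.52 and 10.6 CPM against 19.4, 19.6 and 19.0, without overlap (log2 difference -1.17 ± 0.27, SE; edgeR adjusted p = 0.954). GRCm38 annotates it as antisense, and how strand was used in counting is not given in the sources used here.

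To ask whether any group effect differed between gamma-delta and other T cells, the difference itself was tested over the sums of 3 T cell types, which share the gamma-delta values. Against CD4 T cells, 4 of 14170 genes passed (0.0282%; edgeR, adjusted p below 0.05): Il17f, Furin, Cpd and Serpinb9. Against CD8 T cells, 0 passed in edgeR (0.0%), with 1080 genes at an unadjusted p below 0.05 and a smallest adjusted p of 0.445, and 8 passed without library 1 labelled p16-DTR. Within CD4 T cells alone, 307 of 13029 genes passed between the groups (2.36%), these 4 among them.

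Il17f was at 7.97, 0.260 and 1.92 CPM in CD4 T cells of the p16-DTR-labelled libraries and at 110, 115 and 111 in those of the controls, far apart and without overlap. It fell by 5.29 ± 0.62 on the log2 scale there (SE; edgeR adjusted p = 0.0157). The gamma-delta values given above overlapped, and the group effect in gamma-delta T cells exceeded that in CD4 T cells by 6.70 ± 0.82 (edgeR adjusted p = 0.0142). For Il17a the same difference was 5.12 ± 0.88 and did not pass (edgeR adjusted p = 0.125).

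Furin, a protease that cleaves precursor proteins such as that of transforming growth factor beta, was at 383, 269 and 362 CPM against 379, 360 and 384 in gamma-delta T cells, where the groups overlapped. In CD4 T cells it was at 142, 76.0 and 94.1 against 344, 332 and 313, without overlap (difference of effects 1.53 ± 0.18, SE; edgeR adjusted p = 0.0142). Cpd, a carboxypeptidase that trims the products of furin, was at 151, 99.97 and 119 against 109, 127 and 106 in gamma-delta T cells. In CD4 T cells it was at 55.2, 44.8 and 47.5 against 102, 102 and 94.3 (1.11 ± 0.15, SE; edgeR adjusted p = 0.0225).

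Serpinb9, an inhibitor of the cytotoxic protease granzyme B, ran the other way. It was at 73.0, 69.2 and 69.8 CPM against 89.2, 87.5 and 116 in gamma-delta T cells, and at 101, 141 and 104 against 57.9, 51.8 and 54.0 in CD4 T cells. The groups did not overlap in either type, and the order of the groups was opposite (difference of effects -1.55 ± 0.17, SE; edgeR adjusted p = 0.0142). Within gamma-delta T cells alone the group difference did not pass (edgeR adjusted p = 0.954). In type 17 cells, with 487 of the 709 UMIs, the groups overlapped, at 56.1, 34.2 and 49.9 against 49.4, 75.03 and 103 CPM. The count of 4 rested on single libraries: it was 0 without library 3 labelled p16-DTR, 0 without control library 1, 0 without control library 2 and 1 without control library 3. The differences of effects themselves stayed near their sizes in the 6 fits that each left out 1 library, at 5.94 to 7.54 for Il17f, 1.44 to 1.67 for Furin, 1.02 to 1.21 for Cpd and -1.68 to -1.36 for Serpinb9 on the log2 scale.

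**Figure D5:**
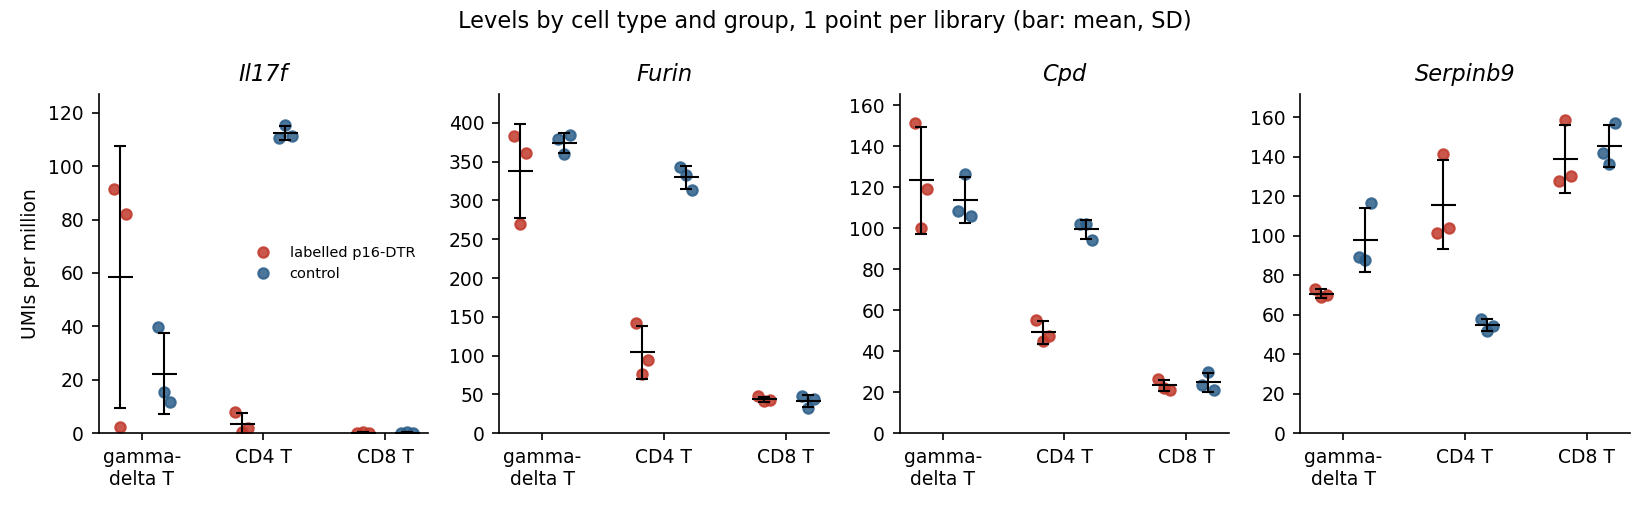
Levels (CPM) of the 4 genes whose group effect differed between gamma-delta and CD4 T cells, in 3 T cell types, 1 point per library with the mean and SD of each group as bars. For Il17f, Furin and Cpd the groups lie apart in CD4 T cells and overlap in gamma-delta T cells, and for Serpinb9 they lie apart in opposite orders.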

How the data were processed

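The authors deposited 1 matrix per library, with whole, unnormalized UMI counts; per the submitters' processing notes, Cell Ranger 8.0.1 and the build mm10 were used. Each has 31054 features, of which 30934 matched GENCODE M21 (GRCm38), used for positions and sequences. Lung cells of 6 libraries were measured.

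The members and lists were chosen with earlier results of these data known. CD4 T (Cd4), CD8 T (Cd8b1) and natural killer cells (Ncr1) were set by like UMI rules, with 2132, 2471 and 1250 cells. No doublet caller was run. As an alternative, cells with UMIs of another lineage were left out. That means the myeloid, endothelial, epithelial, fibroblast, B cell and plasma cell lists, here and below. Counts were summed per library, and libraries, not cells, were the replicates. In a chi-square comparison every pair of replicates differed by more than sampling noise. Sums were tested with the edgeR 4.0.16 quasi-likelihood test (filterByExpr, TMM, Benjamini-Hochberg over all genes at 0.05; limma 3.58.1, R 4.3.3), with group alone or, between cell types, with library as block. SEs come from the F statistic. Shares were tested by exact permutation. The script was tested on simulated data. Other steps ran in Python 3.11.15 with scipy 1.17.1, numpy 2.4.6, matplotlib 3.10.9 and pandas 2.3.3.

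Named are members of 13 gene lists and 12 other-lineage lists, the 20 genes with the smallest p between groups (none was called), genes called in all 6 libraries with the largest differences between cell types at a mean of at least 50 CPM, calls of the difference of effects, Cdkn2a, Cdkn1a and tdTomato. Alternatives were RLE factors, DESeq2 1.42.0, no count filter, other cell filters and Trdc thresholds, and each library left out. Some genes of the lists are counted with their list but not reported here by name.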

Additional observations from a re-analysis of the deposited data

Results flagged for a closer look

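The group effect (p16-DTR-labelled libraries against control) differed between gamma-delta and CD4 T cells for 4 genes in a test of the difference itself (edgeR adjusted p of 0.0142 to 0.0225). On the log2 scale it was 6.70 for Il17f, 1.53 for Furin, 1.11 for Cpd and -1.55 for Serpinb9. With each of the 6 libraries left out in turn, Il17f and Serpinb9 passed in 2 of 6 fits, Furin in 1 and Cpd in 0.

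Outside the rule, library 3 labelled p16-DTR held 53 cells that met every criterion of a gamma-delta T cell except for a UMI of Cd8b1, against 0 to 9 in the other 5 libraries. Of these 53 cells, 51 held Trac, 52 Trbc2 and 51 Cd8a, while Trdv4 and Tcrg-C1 were found in 3 each. They also held Lef1 in 51, Ccr7 in 50, Ccl5 in 51 and Eomes in 44. Their median was 3 UMIs of Trdc, where the members of the rule had 28. They are in none of the T cell sets compared above, and count only in library totals, such as the barcodes past the filter, those with Ptprc, and all Il17a and Il17f UMIs.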

How the results depend on the processing

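Counts were 0 called between the groups in gamma-delta and in type 17 cells with any library left out. They were 3 and 3 with DESeq2, 2 in gamma-delta T cells without cells holding 3 or more UMIs of another lineage (89 of 496 cells remained), and in type 17 cells 2 with no filter on low counts (Mtcl1 and Kcnq5) and 1 without cells holding 10 or more such UMIs, an alternative chosen after the data were seen. With 3 or more such UMIs barred, Relb (0.0909), Cdkn1a (0.0932) and Tcrg-V6 (0.0333) turned to positive log2 differences in gamma-delta T cells, none called. Of the cells barred, 343 reached that number on the endothelial list, and whether they made its transcripts themselves was not tested. Over all genes named, 1219 of the values under an alternative kept their direction and side of the threshold, 19 fell short of it and 8 newly passed. All 19 came from the 4 genes of the difference of effects against CD4 T cells, of whose 32 values 13 stayed the same. Each comparison with another cell type kept 240 of 240.

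With libraries left out, the difference in the share among T cells ran from -1.82 to 0.0142 percentage points (the latter without control replicate 2), that in the type 17 share from -4.28 to 0.0817 (the latter without p16-DTR replicate 3) and that in the Cdkn2a share from 2.38 to 4.67. In both of the first 2 shares the groups did not overlap without p16-DTR replicate 1. The type 17 difference, -1.82 in all libraries, was -10.1 with 3 or more UMIs of another lineage barred, -3.21 after thinning, -3.10 with Trdc of at least 3, -2.94 with at least 3 UMIs of type 17 genes and -0.83 with Trdc of at least 1, none past the test. Calls ran from 3570 to 3799 against CD8 T, 2733 to 3074 against CD4 T and 3343 to 4423 against natural killer cells. The difference of effects gave 0 to 4 calls against CD4 T cells (0 without p16-DTR 3, control 1 or control 2, and 1 without control 3) and 0 to 8 against CD8 T cells (8 without p16-DTR 1, 1 without p16-DTR 2 and 1 without control 3). The cause of these changes was not tested.

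The labels state no pairing by replicate number. Correlations over genes were -0.27, -0.03 and -0.09 for same-number pairs and -0.20 to 0.29 for the others. With 3 libraries per group these values cannot show whether samples were paired. With the number as a replicate block edgeR called 0 genes between the groups. Depth limits Cdkn2a, Ifng and Il22, which were too low to be tested between the groups in gamma-delta T cells.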
